A study of Arabidopsis thaliana with 6 samples.

Results

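The genes described here are 38 listed loci of the jasmonate pathway in Arabidopsis thaliana, out of 32627 genes measured. They were taken by locus name and role, with no threshold on their values, from a list drawn up with earlier results of these data known. The list holds 13 enzymes of jasmonate synthesis, 4 enzymes that conjugate, methylate or inactivate the hormone, the receptor COI1, the 12 repressors JAZ1 to JAZ12, the transcription factors MYC2, MYC3 and MYC4, the floral factors MYB21, MYB24 and MYB57, and the target genes VSP1 and VSP2. All 38 had a value on every array, and none was filtered out. The tissue was inflorescence with buds younger than flower stage 10, from plants of the accession Ler (Landsberg erecta) that carry 35S::SUP-GR. In this transgene the broadly active viral 35S promoter drives the flower zinc-finger protein SUPERMAN (SUP), joined to the steroid-binding domain of the glucocorticoid receptor. The hormone analogue dexamethasone (DEX) generally lets such fusions enter the nucleus. The DEX group was dipped for 1 min in 10 µM dexamethasone, and the Mock group in the same amount of ethanol, both with 0.015% of the wetting agent Silwet L-77. Tissue was taken 4 hours later, with 3 arrays in each group. Both groups carry the transgene, and DEX-treated plants without it were not analysed here, so DEX itself is part of every difference.

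Jasmonate is a lipid-derived hormone. Lipases release linolenic acid in the plastid, lipoxygenases oxidise it, AOS and the AOC cyclases turn it into a cyclic precursor, and OPR3 and beta-oxidation enzymes in the peroxisome complete the synthesis. JAR1 joins jasmonate to isoleucine, and this conjugate brings the JAZ repressors to the F-box protein COI1 for destruction, which frees MYC2 and its relatives. MYC factors switch on synthesis enzymes and JAZ genes, so ligand production and repression both follow signalling. In Arabidopsis flowers jasmonate is known for stamen filament growth, anther opening and pollen maturation, acting in part through MYB21 and MYB24.

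Values are the authors' normalized intensities, and differences are DEX minus Mock on the log2 scale. Median intensity was 74.2 to 75.2 on the DEX arrays and 74.7 to 77.3 on the Mock arrays. Mock replicate 1 had low organelle transcripts, with a median deviation from each gene's mean over the 6 arrays of -0.52 for chloroplast and -0.479 for mitochondrial genes. The SUP feature read 453, 500.1 and 466 in DEX inflorescences, against 415, 465 and 451 in Mock inflorescences. All 8 flower bud markers (AP1, AP3, PI, AG, SEP1, SEP2, SEP3 and LFY) were brighter than the median gene, whose intensity was 72.9.

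MYC2 (AT1G32640), the leading transcription factor of the pathway, and JMT (AT1G19640), which makes the volatile methyl jasmonate, had the smallest adjusted p of the 38 members and were lower after DEX. MYC2 read 229, 248 and 208 in DEX inflorescences, against 426, 453 and 402 in Mock inflorescences. JMT read 140, 151 and 90.6 in DEX inflorescences, against 328, 334 and 261 in Mock inflorescences. For both genes every DEX array was below every Mock array. The difference was -0.91 (SE 0.12) for MYC2, a 1.87-fold lower level, and -1.30 (SE 0.24) for JMT, a 2.46-fold lower level. Neither passed the threshold of 0.05 with limma's default variance prior (adjusted p = 0.104 and 0.176). Both passed with a prior that follows intensity and is robust to outlying variances (limma adjusted p = 0.00132 for MYC2 and 0.00289 for JMT). In bulk tissue, fewer cells that make a transcript and less of it per cell cannot be told apart.

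With the default prior 0 of the 38 members were called in either direction, in a comparison that called 0.0521% of all genes. With the intensity-following prior MYC2 and JMT were the 2 members called lower, where 1.06% of all genes were, and 0 were called higher, where 0.257% of all genes were. At an unadjusted p under 0.05 (limma, default prior) 6 members were lower, or 15.8%, against 5.92% of all genes, and 1 was higher, or 2.63%, against 4.5% of all genes. The DEX arrays lay wholly below the Mock arrays for 7 members, or 18.4%, against 9.2% of all genes, and wholly above for 2, or 5.26%, against 8.74%. Differences were below 0 for 24 of the 38 members (63.2%), against 49.1% of all genes. The median difference was -0.10 over the 38 members and 0.01 over all genes. Of the 23 members brighter than the median gene, 13 were below 0 (56.5%), against 47.4% of all such bright genes. Their median was -0.06, against 0.01 for bright genes. The DEX arrays lay wholly below the Mock arrays for 5 of the 23 (21.7%) and wholly above for 2 (8.7%), against 10.5% and 10.9% of bright genes. These counts describe the list, and no test was made of it as a set. Without genes below the median brightness, limma's default prior called MYC2 (adjusted p = 0.0054) and JMT (0.017).

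**Figure D1:**
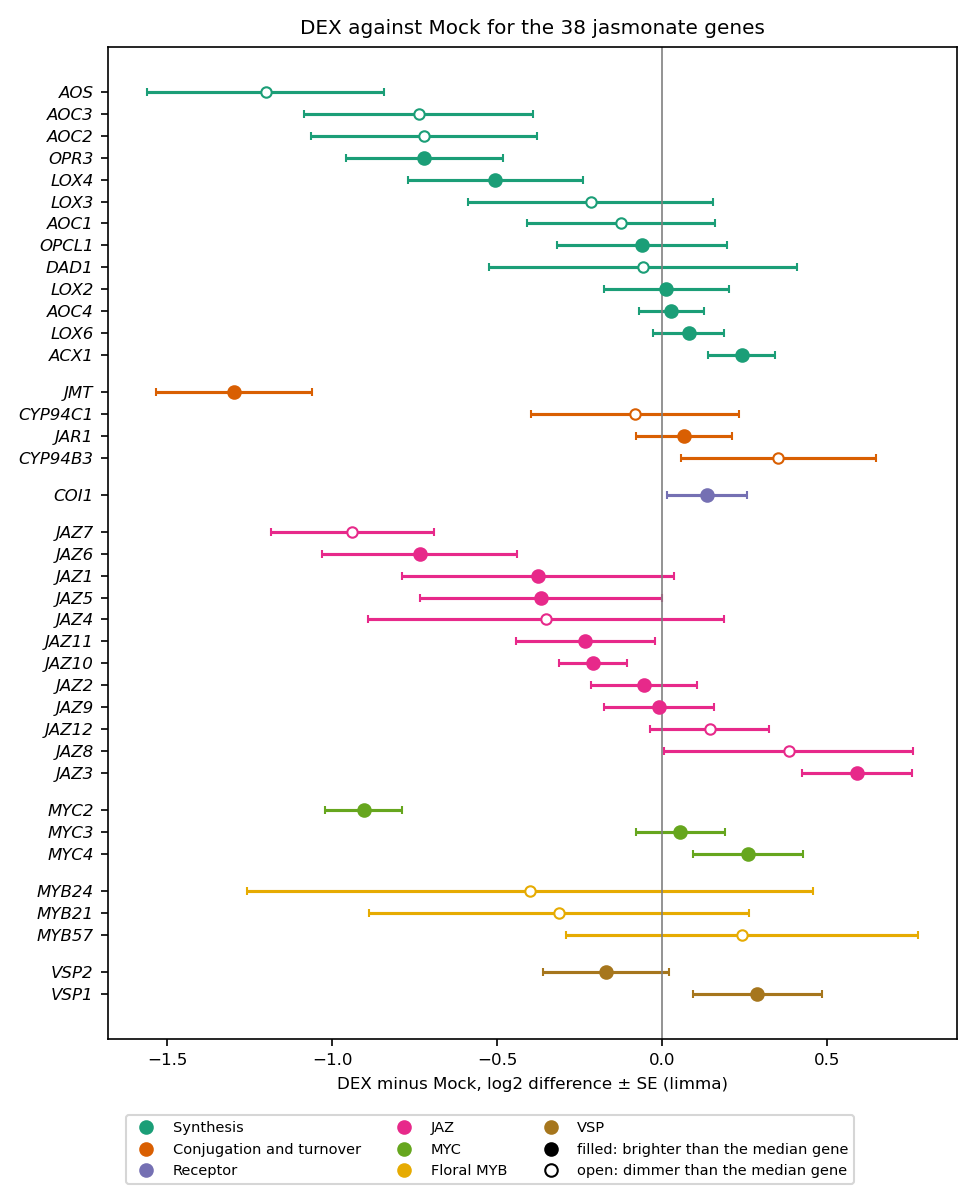
Difference between DEX and Mock (log2, horizontal axis) for each of the 38 genes, grouped by role, with the standard error of the limma fit as bars; filled points are genes brighter than the median gene. MYC2 at -0.91, JMT at -1.30 and AOS at -1.20 lie far to the left, while MYC3, MYC4, COI1 and ACX1 lie at or right of 0.

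Synthesis opens with the lipase DAD1 (AT2G44810), named for the anthers that fail to open without it. DAD1 was close to the bottom of the array's range, at 1.44, 2.04 and 3.97 in DEX inflorescences, against 1.56, 2.45 and 3.47 in Mock inflorescences. The groups overlapped, and only 15.3% of genes were dimmer. The next step is taken by 13-lipoxygenases, and among these LOX2 (AT3G45140), best known from wounded leaves, was brighter than 99.8% of genes. LOX2 averaged 11.07 ± 0.20 in DEX and 11.06 ± 0.27 in Mock inflorescences (log2 intensity, SD, n = 3), a difference of 0.01 with a 95% interval from -0.46 to 0.48. LOX3 (AT1G17420) and LOX4 (AT1G72520), which together are needed for male fertility, differed by -0.22 (SE 0.37) and -0.51 (SE 0.26). LOX4 read 74.9, 91.1 and 47.4 in DEX inflorescences, against 93.0, 89.7 and 111 in Mock inflorescences, so DEX replicate 3 was the lowest array and DEX replicate 2 lay inside the Mock range. Without DEX replicate 3 the LOX4 difference was -0.24. LOX6 (AT1G67560), another 13-lipoxygenase, differed by 0.08 (SE 0.11).

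AOS (AT5G42650), allene oxide synthase and the first enzyme committed to jasmonate, was the synthesis gene with the largest difference. It read 29.3, 25.4 and 15.9 in DEX inflorescences, against 59.4, 70.8 and 34.3 in Mock inflorescences. The groups did not overlap, and the lowest Mock value, on replicate 3, lay close to the highest DEX value, on replicate 1. The difference was -1.20 (SE 0.36) and did not pass (limma adjusted p = 0.356; 0.112 with the intensity-following prior). With 16 added to each intensity, which damps differences of dim genes, it was -0.82.

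The 4 allene oxide cyclases, which set the natural stereochemistry of the hormone, split by brightness. AOC4 (AT1G13280) was the bright one, at 394, 431 and 413 in DEX inflorescences, against 412, 391 and 411 in Mock inflorescences, a difference of 0.03 with a 95% interval from -0.22 to 0.27. AOC3 (AT3G25780) read 28.3, 18.8 and 16.4 in DEX inflorescences, against 48.1, 37.1 and 22.6 in Mock inflorescences. AOC3 differed by -0.74 (SE 0.35) and AOC2 (AT3G25770) by -0.72 (SE 0.34), and for both the groups overlapped. AOC2 was dim, at a mean intensity of 4.74 in DEX and 7.78 in Mock inflorescences, and differed by -0.45 without DEX replicate 1. With 16 added the differences were -0.47 for AOC3 and -0.19 for AOC2. AOC1 (AT3G25760) was dim, at a mean intensity of 2.76 in DEX and 3.07 in Mock inflorescences. AOC1, AOC2 and AOC3 are direct neighbours on chromosome 3 in RefSeq (TAIR10.1) and have similar sequences. The probe design is not given in the sources used here, so signal shared between these copies was not tested.

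OPR3 (AT2G06050), the reductase whose loss delays anther opening, read 289, 345 and 191 in DEX inflorescences, against 433, 480.4 and 412 in Mock inflorescences. Every DEX array was below every Mock array, and DEX replicate 3 was well below the other DEX arrays. The difference was -0.72 (SE 0.24; limma adjusted p = 0.397, and 0.0911 with the intensity-following prior). Without DEX replicate 3 it was -0.48. Of the last steps, the CoA ligase OPCL1 (AT1G20510) differed by -0.06 (SE 0.26). The acyl-CoA oxidase ACX1 (AT4G16760) had the opposite direction to OPR3, at 922, 898 and 887 in DEX inflorescences, against 735, 813 and 747 in Mock inflorescences. The groups did not overlap for ACX1, and its difference of 0.24 (SE 0.10) did not pass (limma adjusted p = 0.496). Over the 13 synthesis genes 9 differences were below 0 (69.2%, against 49.1% of all genes) and the median was -0.13. Without genes below the median brightness this median was 0.012.

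Of the enzymes that act on finished jasmonate, JAR1 (AT2G46370), which makes the active isoleucine conjugate, was brighter than 98% of genes and differed by 0.07 (SE 0.14). It read 1262, 1483 and 1415 in DEX inflorescences, against 1378, 1476 and 1135 in Mock inflorescences. The groups overlapped, and the 95% interval of the difference ran from -0.29 to 0.43. JMT, described above, takes jasmonate to its methyl ester instead. CYP94B3 (AT3G48520) and CYP94C1 (AT2G27690), cytochrome P450 enzymes that oxidise the conjugate and end its action, were dim. CYP94B3 had mean intensities of 2.0 in DEX and 1.52 in Mock inflorescences, and CYP94C1 of 4.61 in DEX and 4.81 in Mock inflorescences.

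**Figure D2:**
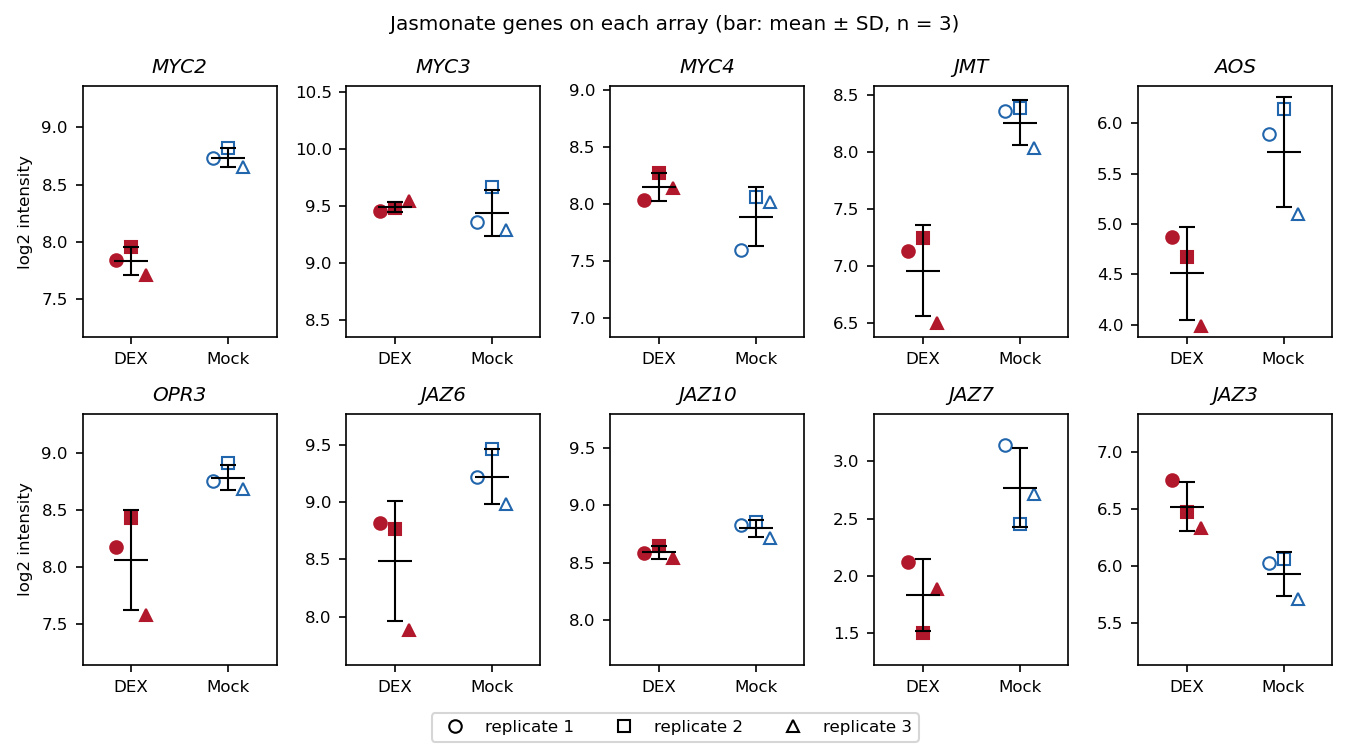
Log2 intensity (vertical axis, panels differ in level and span) of 10 genes on the DEX arrays (left, filled) and the Mock arrays (right, open), with mean and SD (n = 3) as bars and replicate numbers as symbols. The groups are apart for MYC2, JMT, AOS, OPR3, JAZ6, JAZ10 and JAZ7 with DEX lower, and for JAZ3 with DEX higher; they overlap for MYC3 and MYC4.

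The receptor COI1 (AT2G39940) read 839, 767 and 714 in DEX inflorescences, against 644, 754 and 714 in Mock inflorescences. The groups overlapped, with a difference of 0.13 (SE 0.12) and a 95% interval from -0.17 to 0.44.

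The JAZ repressors differed widely in brightness and did not all differ in the same direction. JAZ9 (AT1G70700) was brighter than 94.2% of genes, and JAZ6, JAZ10, JAZ2, JAZ1, JAZ5, JAZ11 and JAZ3 were also brighter than the median gene. JAZ12 (AT5G20900), JAZ4 (AT1G48500) and JAZ7 were dimmer than it. JAZ8 (AT1G30135), a repressor without the usual signal for destruction, was the dimmest at mean intensities of 1.72 in DEX and 1.22 in Mock inflorescences. Of the 12 JAZ genes, 9 had differences below 0 (75%, against 49.1% of all genes), and the median was -0.22. None passed (limma, default or intensity-following prior). At an unadjusted p under 0.05, 2 were lower (16.7%) and 1 higher (8.33%), against 5.92% and 4.5% of all genes. The DEX arrays lay wholly below the Mock arrays for 3 JAZ genes (25%) and wholly above for 1 (8.33%), against 9.2% and 8.74% of all genes.

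JAZ6 (AT1G72450) was lower on all 3 DEX arrays, at 451, 435 and 236, against 596, 708 and 507 in Mock inflorescences. DEX replicate 3 was far below the other DEX arrays. The difference was -0.73 (SE 0.30; limma adjusted p = 0.479), and -0.43 without DEX replicate 3. JAZ7 (AT2G34600) also had separate groups, at 4.35, 2.82 and 3.68 in DEX inflorescences, against 8.83, 5.48 and 6.57 in Mock inflorescences. Its difference of -0.94 (SE 0.25; limma adjusted p = 0.308) was measured near the lowest 25% of genes, which end at an intensity of 4.57, and was -0.23 with 16 added. JAZ10 (AT5G13220), known in Arabidopsis for splice forms that resist destruction, was the third JAZ gene with separate groups. It read 383, 401 and 371 in DEX inflorescences, against 454, 463 and 419.8 in Mock inflorescences, a difference of -0.21 (SE 0.10; limma adjusted p = 0.556).

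JAZ3 (AT3G17860), the repressor first found through a jasmonate-insensitive mutant, had the largest difference above 0 of all 38 members. It read 108, 88.8 and 80.8 in DEX inflorescences, against 65.1, 66.6 and 52.4 in Mock inflorescences. All 3 DEX arrays lay above all 3 Mock arrays, by 0.59 (SE 0.17), which did not pass (limma adjusted p = 0.342). JAZ1 (AT1G19180) and JAZ5 (AT1G17380) had wide spreads within the DEX group. JAZ1 read 235, 185 and 89.1 in DEX inflorescences, against 239, 238 and 149 in Mock inflorescences. JAZ5 read 178, 123 and 68.7 in DEX inflorescences, against 157, 167 and 124 in Mock inflorescences. In both genes DEX replicate 3 alone lay well below the Mock arrays, and without it the differences of -0.38 (SE 0.41) and -0.37 (SE 0.37) became 0.03 and -0.00024. Mock replicate 3 was the lowest Mock array for both, and without replicate 3 of both groups the differences were -0.19 for JAZ1 and -0.13 for JAZ5. JAZ2 (AT1G74950), JAZ9 and JAZ12 differed by -0.06 (SE 0.16), -0.01 (SE 0.17) and 0.14 (SE 0.18), and JAZ11 (AT3G43440) by -0.23 (SE 0.21).

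Of the members, 9 have more than 1 feature on the array, and the brightest stands for the gene above. JAZ10 has 4 features, and all 4 had separate groups with DEX lower. Feature 1 of JAZ10, nearly as bright as feature 3 that stands for the gene, had mean intensities of 277 in DEX and 431 in Mock inflorescences, a difference of -0.65 (SE 0.18). The other JAZ10 features were dimmer. Feature 2 of JAZ10 differed by -0.62 (SE 0.25), at mean intensities of 14.6 in DEX and 23.2 in Mock inflorescences. Feature 4 of JAZ10 differed by -0.81 (SE 0.22), at only 2.90 in DEX and 5.10 in Mock inflorescences. OPR3 has 3 features of similar brightness, which differed by -0.38 (SE 0.18), -0.72 (SE 0.24) and -0.31 (SE 0.16). The groups overlapped for feature 1 of OPR3 and were separate for its features 2 and 3. The features of JAZ4, JAZ9 and JAZ3 disagreed. Features 1, 2 and 3 of JAZ4 were dim and differed by 0.04 (SE 0.47), -0.35 (SE 0.54) and -1.17 (SE 0.61). Feature 2 stands for JAZ4, and the groups overlapped for all its features. Feature 2 of JAZ9 had mean intensities of 489 in DEX and 728 in Mock inflorescences, a difference of -0.59 (SE 0.18), while feature 1 stood at -0.01. Feature 1 of JAZ3 differed by 0.05 (SE 0.21), so the difference above 0 was seen with feature 2 alone. A second feature of JAZ1 was dim, at 2.31 in DEX and 1.34 in Mock inflorescences, and had separate groups with DEX higher. No feature of these 9 members passed when every feature was tested (limma, default prior, smallest adjusted p among features that do not stand for a gene 0.318). Which transcript forms the features read is not given in the sources used here.

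**Figure D3:**
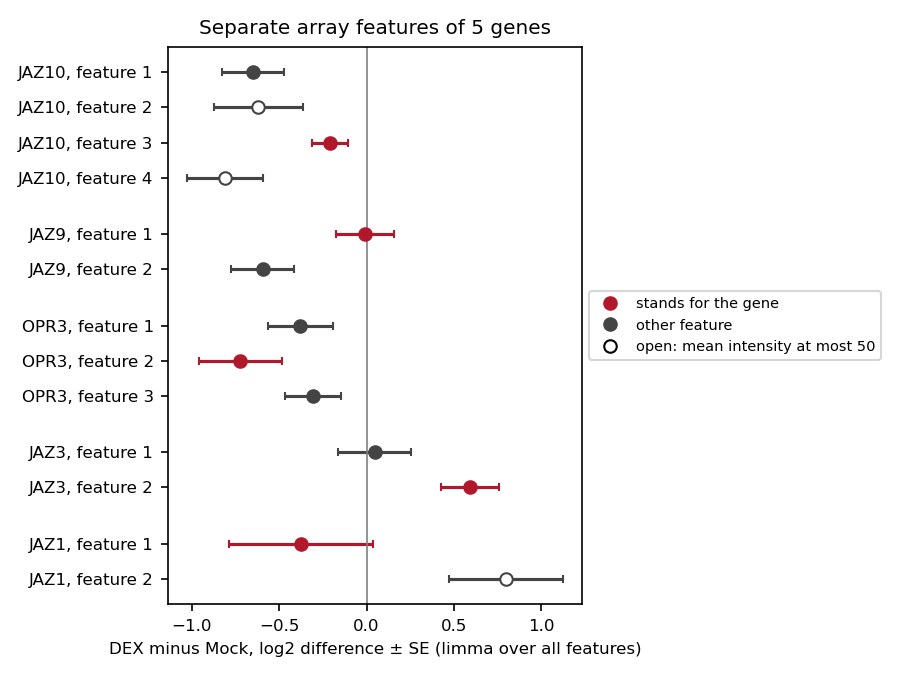
Difference between DEX and Mock (log2, horizontal axis, bars are the standard error of limma over all features) for each separate feature of JAZ10, JAZ9, OPR3, JAZ3 and JAZ1. All 4 JAZ10 features and all 3 OPR3 features lie left of 0, whereas the features of JAZ9 and of JAZ3 lie apart from each other.

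Among the MYC factors, which act together on jasmonate targets in Arabidopsis, MYC2 is described above. MYC3 (AT5G46760) read 701, 713 and 743 in DEX inflorescences, against 658, 810 and 623 in Mock inflorescences. Its groups overlapped, with a difference of 0.05 (SE 0.14) and a 95% interval from -0.28 to 0.39. MYC4 (AT4G17880) read 262, 310 and 282 in DEX inflorescences, against 193, 267 and 259 in Mock inflorescences, where Mock replicate 1 was the lowest. Its difference was 0.26 (SE 0.17), with an interval from -0.15 to 0.67, and was 0.11 without Mock replicate 1. The interval for MYC2 ran from -1.20 to -0.61. MYC2 kept its direction without any 1 of the 6 arrays, with differences from -0.97 to -0.84. With the intensity-following prior and 1 array left out, limma's adjusted p lay between 0.00523 and 0.0102 for MYC2 and between 0.00452 and 0.0209 for JMT over the 6 fits.

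The floral factors were at the bottom of the range. MYB21 (AT3G27810) read 1.53, 0.70 and 2.52 in DEX inflorescences, against 1.02, 1.87 and 2.69 in Mock inflorescences. MYB57 (AT3G01530) read 3.07, 0.96 and 2.09 in DEX inflorescences, against 1.15, 1.23 and 2.63 in Mock inflorescences. MYB24 (AT5G40350) read 4.42, 1.97 and 6.46 in DEX inflorescences, against 16.9, 2.45 and 3.13 in Mock inflorescences, and only Mock replicate 1 stood far above the other arrays. By mean log2 intensity all 3 belonged to the dimmest 25% of genes. Their groups overlapped, and their differences were -0.31 (SE 0.58), -0.40 (SE 0.86) and 0.24 (SE 0.53) for MYB21, MYB24 and MYB57. Their upstream activators ARF6 and ARF8 were bright and differed by 0.10 (SE 0.12) and -0.02 (SE 0.13).

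The vegetative storage proteins VSP1 (AT5G24780) and VSP2 (AT5G24770) are classical jasmonate-induced genes of leaves and flowers. VSP1 read 1167, 1119 and 908 in DEX inflorescences, against 689, 1022 and 924 in Mock inflorescences. VSP2 read 947, 828 and 607 in DEX inflorescences, against 829.6, 951 and 862 in Mock inflorescences. The groups overlapped for both, and the differences of 0.29 (SE 0.19) and -0.17 (SE 0.19) lay on opposite sides of 0. Without Mock replicate 1 the VSP1 difference was 0.12. The VSP2 difference was -0.31 without DEX replicate 1, and 0.010 without DEX replicate 3, where VSP2 was lowest. The genes are near neighbours on chromosome 5 with similar sequences, and signal shared between them was not tested.

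Many members were low together on the arrays numbered 3. Of the 38 members, 23 had their lowest DEX value on DEX replicate 3 (60.5%), against 32.9% of all genes, and 22 had their lowest Mock value on Mock replicate 3 (57.9%), against 31.6% of all genes. Among the 12 JAZ genes the counts were 9 and 10. The median JAZ gene deviated from its own mean by 0.16, -0.09 and -0.33 on DEX replicates 1, 2 and 3, against 0.21, 0.12 and -0.13 on Mock replicates 1, 2 and 3. Without DEX replicate 3 the median difference of the JAZ genes was 0.02 in place of -0.22, and without replicate 3 of both groups it was -0.10. MYC2 and JMT were also lowest on the arrays numbered 3 in each group, but their groups stayed apart.

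**Figure D4:**
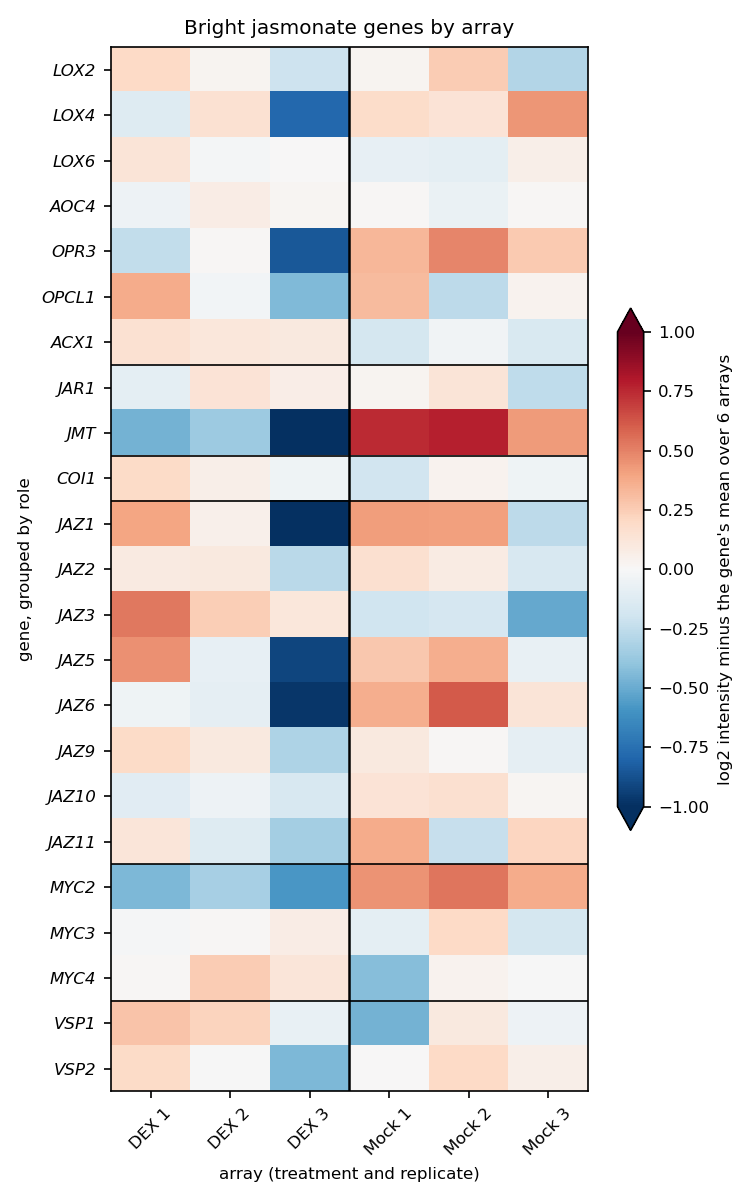
Deviation of log2 intensity from each gene's mean over 6 arrays (colour, blue below and red above) for the 23 members brighter than the median gene, in rows by role, on the DEX arrays (left) and the Mock arrays (right). DEX replicate 3 is the bluest column, through JMT, JAZ1, JAZ5, JAZ6, OPR3 and LOX4, and the MYC2 and JMT rows are blue on all DEX arrays and red on all Mock arrays.

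Touch and handling genes, transcripts that plants make soon after touch or stress, were examined beside this pattern. None of these 14 genes had its lowest DEX value on DEX replicate 3, and 12 had it on DEX replicate 2. On the Mock side, 9 were lowest on Mock replicate 2 and 5 on Mock replicate 3 (35.7%, against 31.6% of all genes). Their summed intensity was 1433 to 1800 on the DEX arrays and 1701 to 2160 on the Mock arrays. Of the 14, 11 differences were below 0 (78.6%, against 49.1% of all genes) and 0 passed. At an unadjusted p under 0.05 (limma), 1 was lower (7.14%) and 0 higher, against 5.92% and 4.5% of all genes. The lower gene was TCH3, a calmodulin-like protein, at -0.53 (SE 0.17), and TCH4, a wall enzyme, stood at -0.88 (SE 0.37). The DEX arrays lay wholly below the Mock arrays for 4 touch genes (28.6%) and wholly above for 0, against 9.2% and 8.74% of all genes. The part of handling in the differences of MYC2, JMT and the JAZ genes was not tested.

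Besides these touch genes, 54 further genes of jasmonate synthesis, signalling, response and floral context were read from lists. None of the 54 passed (limma, default or intensity-following prior). At an unadjusted p under 0.05, 5 were lower (9.26%) and 1 higher (1.85%), against 5.92% and 4.5% of all genes. The DEX arrays lay wholly below the Mock arrays for 7 of the 54 (13%) and wholly above for 3 (5.56%), against 9.2% and 8.74% of all genes. Differences were below 0 for 32 of the 54 (59.3%), against 49.1% of all genes. Among 9 other turnover and transport genes, JRG21, a jasmonate-regulated oxygenase, and ILL6, a hydrolase of jasmonate conjugates, had separate groups. JRG21 read 11.9, 10.5 and 9.61 in DEX inflorescences, against 25.4, 37.7 and 19.0 in Mock inflorescences, a difference of -1.31 (SE 0.27), or -0.68 with 16 added. ILL6 read 226, 148 and 70.7 in DEX inflorescences, against 337, 400.3 and 245 in Mock inflorescences, a difference of -1.27 (SE 0.46), with DEX replicate 3 lowest here too. Among 11 other signalling genes, NIG1 (AT5G46830), a helix-loop-helix gene related to MYC2 and also named MYC5, had the smallest p. Its groups were separate with DEX lower. NIG1 differed by -1.52 (SE 0.31) at mean intensities of 6.16 in DEX and 17.8 in Mock inflorescences, or by -0.60 with 16 added. The next smallest p in that list was that of CUL1, a scaffold of the COI1 ubiquitin ligase, at 0.25 (SE 0.13).

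Of 13 other jasmonate-responsive genes, 7 were below 0 and the median was -0.29. THI2.1, an antimicrobial thionin, differed by -0.46 (SE 0.16) and CLH1, a chlorophyllase, by -0.57 (SE 0.22), both with separate groups. Of 12 other synthesis and peroxisome genes, 8 were below 0 with a median of -0.08. The smallest p belonged to ACX5, a second acyl-CoA oxidase of the pathway, at -0.27 (SE 0.12), and to the fatty acid desaturase FAD3 at -0.14 (SE 0.11). Of the 9 floral context genes, RGA, a DELLA repressor of gibberellin signalling, differed by 0.31 (SE 0.10), and BPE, a petal growth factor, by 0.23 (SE 0.12), each with DEX higher on all 3 arrays.

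Markers of other cell types were read in the same comparison. The summed intensity of the 8 flower bud markers was 5627 to 5843 on the DEX arrays and 6319 to 6738 on the Mock arrays. Of the 8 differences, 7 were below 0 (87.5%), against 49.1% of all genes. At an unadjusted p under 0.05 (limma, default prior), 3 were lower (37.5%) and 0 higher, against 5.92% and 4.5% of all genes. The DEX arrays lay wholly below the Mock arrays for 3 bud markers (37.5%) and wholly above for 1 (12.5%), against 9.2% and 8.74% of all genes. LFY, a meristem identity factor, differed by -0.82 (SE 0.18; limma adjusted p = 0.251, and 0.0155 with the intensity-following prior), and SEP3 by -0.47 (SE 0.16). SEP1 went the other way, at 0.29 (SE 0.12), with every DEX array above every Mock array. AP1 differed by -0.28 (SE 0.11), with separate groups and DEX lower. PI and AP3 differed by -0.32 (SE 0.16) and -0.18 (SE 0.11), and AG and SEP2 by -0.10 (SE 0.15) and -0.05 (SE 0.13). The 8 tapetum and anther markers summed to 3592 to 4063 on the DEX arrays and 4016 to 4248 on the Mock arrays. MYB26, needed for anther wall thickening, differed by -0.98 (SE 0.29), and AMS, a tapetum regulator, by 0.29 (SE 0.12). The 3 pollen markers summed to 1239 to 1494 on the DEX arrays and 1373 to 1570 on the Mock arrays. Most of that signal came from CYP703A2, at mean intensities of 1064 in DEX and 1067 in Mock inflorescences. CYP703A2 differed by -0.0048 (SE 0.11), and its groups overlapped. MGH3, a sperm histone, differed by -1.61 (SE 0.48), or -0.59 with 16 added, at mean intensities of 4.61 in DEX and 15.9 in Mock inflorescences. VGD1, a pollen pectin methylesterase, differed by -0.52 (SE 0.27). The 6 leaf photosynthesis markers summed to 7171 to 7691 on the DEX arrays and 7549 to 8134 on the Mock arrays, with LHCB4.1 at -0.25 (SE 0.13) and LHCB1.1 at the bottom of the range, at mean intensities of 0.953 in DEX and 1.71 in Mock inflorescences. In this list 5 of 6 differences were below 0, and that of LHCB2.1 was 0.43 (SE 0.44). Of the root hair markers, RHD6 and EXPA7 were dim, at mean intensities of 1.94 and 2.39 in DEX inflorescences, against 2.90 and 3.12 in Mock inflorescences. The other, COBL9, was bright, at 211 in DEX and 167 in Mock inflorescences, and its groups overlapped. No marker passed with the default prior. The part of these markers' cell types in the differences of MYC2 and JMT was not tested.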

How the data were processed

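Total RNA of 3 DEX and 3 Mock samples was labelled with Cy3 and read on NimbleGen arrays, per the labels. The authors deposited 1 RMA intensity per feature and array, per the submitters' processing notes; the values proved to be linear. Neither the RMA version nor the probe design was found in the labels. Of 39640 rows, 2522 hold no value, which left 37118 features. RMA puts arrays on 1 distribution, so a shift common to most genes would not show. The log2 was taken with no pseudocount, and the brightest feature stood for each of 32627 loci, with no filter on dim genes. DEX was compared with Mock by limma 3.58.1 in R 4.3.3 (default prior, two-sided, Benjamini-Hochberg over all genes, threshold 0.05); the intensity-following prior is limma's trended and robust option. The fit was run on simulated data with planted differences. The simulated noise was independent and depended on brightness alone, so this check cannot decide between the priors.

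The 38 members and all lists were chosen with earlier results of these data known. The naming rule took all members, SUP and, from each other list, genes past the threshold or else the 2 with the smallest unadjusted p. ARF6, ARF8 and the further bud, pollen, leaf and root hair markers lie outside it and were named for their levels or differences. RefSeq symbols (TAIR10.1) were matched by locus for all 38. Arrays have no read depth; precision is set by their small number. Nothing in the labels ties replicates to separate plantings, so p-values cover the spread between these samples, which may be technical.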

Additional observations from a re-analysis of the deposited data

How the results depend on the processing

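The count of members called depended on the variance prior and on dim genes, whereas no member was called higher in any fit with adjusted p under 0.05. Members called lower (limma, 0 with the default prior) numbered 2 with the trended and robust prior, 2 without genes below the median brightness, 1 (MYC2) without the dimmest 25% of genes, 1 (MYC2) with 16 added to each intensity, and 6 at an unadjusted p, where 1 was higher and 7 of 68 pathway and touch genes passed. Quantile normalization, median centring, array weights, the mean over features, an adjusted p under 0.1 and leaving out any 1 array with the default prior left this count at 0. MYC2 and JMT stayed below 0 in every setting run. The fits named next, and the block with this prior, were chosen after seeing the data. With the trended and robust prior, leaving out 1 array gave 2 members, or 3 without DEX replicate 2, which added OPR3, and leaving out DEX replicate 1 called 1 pathway gene. That prior gave 2 members with 16 added and 2 without replicate 3 of both groups.

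The replicate number as a block, fixed or random, left the count at 0 with the default prior; with the trended and robust prior a fixed replicate block called 5 members lower (MYC2, JMT, AOS, OPR3 and JAZ6) and 3 pathway genes. Deviations of same-numbered arrays from their group means correlated by 0.0277, 0.0634 and 0.0558 over all genes, below the 0.1 at which numbers were taken to pair arrays. Over genes brighter than the median they were 0.107, 0.293 and 0.234, and over the members 0.195, 0.455 and 0.239. Every array correlated best with its own number, a hint from the data and not from the labels.

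The median of the conjugation and turnover genes was -0.62 under both filters on dim genes, since only JAR1 and JMT were left, and that of the synthesis genes was 0.012 without genes below the median. Members higher without overlap numbered 1 with the mean over features, 2 to 4 without 1 array, and 5 without replicate 3 of both groups, where 11 were lower without overlap; fewer arrays overlap more rarely by construction. Without 1 array, the median ran from -0.31 to -0.034 for synthesis, from -0.28 to 0.016 for JAZ and from -0.022 to 0.17 for MYC genes.

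The differences of the following members, none of them called, changed sign in at least 1 setting. JAZ9 stood at 0.020 with median centring and 0.015 with array weights, and JAZ1 at 0.21 with the mean over features. Without replicate 3 of both groups LOX2 was at -0.026, OPCL1 at 0.14, JAR1 at -0.061, CYP94C1 at 0.11, JAZ9 at 0.093 and MYC3 at -0.046. Over the fits without 1 array, synthesis differences ran from -0.46 to 0.27 for DAD1, -0.13 to 0.14 for LOX2, -0.50 to 0.038 for LOX3, -0.31 to 0.12 for AOC1, -0.0038 to 0.061 for AOC4 and -0.26 to 0.14 for OPCL1. They ran from -0.044 to 0.15 for JAR1 and from -0.36 to 0.11 for CYP94C1. Among JAZ genes they ran from -0.67 to 0.033 for JAZ1, -0.15 to 0.066 for JAZ2, -0.79 to 0.071 for JAZ4, -0.028 to 0.65 for JAZ8, -0.11 to 0.14 for JAZ9 and -0.0026 to 0.27 for JAZ12. They ran from -0.022 to 0.17 for MYC3, -0.74 to 0.18 for MYB21, -0.92 to 0.47 for MYB24, -0.13 to 0.71 for MYB57 and -0.31 to 0.010 for VSP2. The cause of these shifts was not tested.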
